A study of Mus musculus with 17 samples.

Results

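The genes described here act at the opening of meiotic recombination, from the choice of the break site to the invasion of the homologous chromosome by the broken strand. They are Prdm9, Zcwpw1, Hells, Spo11, Rec114, Mei4, Rpa1, Dmc1 and Swsap1, and make up 9 of the 20807 autosomal protein-coding genes of the GENCODE M21 annotation. They were named by their function, but earlier results of these data were known when they were chosen. For each gene, every row of the H3.3 peak lists that lay within 1 kb of one of its transcript starts or inside the gene was taken. H3.3, a histone variant placed into chromatin outside of DNA replication, was mapped by CUT&RUN, which cuts out and sequences the chromatin that a bound antibody marks. The cells were pachytene spermatocytes purified by Sta-Put sedimentation from adult CD1 males. Of 17 libraries in the series, 5 profiled H3.3 (Arid1a WT, n = 2, and Arid1a cKO, n = 3), and the other 12, made against ARID1A, were not used here.

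Arid1a encodes a subunit of the BAF chromatin remodeler. Arid1a cKO males carried Arid1a fl/fl and 1 copy of a Stra8-Cre transgene, which is expressed in germ cells from the spermatogonia onwards, and Arid1a WT males carried floxed Arid1a without Cre. Excision by Stra8-Cre is incomplete, so some cKO spermatocytes keep ARID1A. Cells of several animals were pooled to obtain enough spermatocytes. The lists hold peaks and no expression, so the cell type could not be checked against marker genes.

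In meiosis, PRDM9 binds DNA and marks the nucleosomes around it, SPO11 cuts the DNA at these hotspots, and the cut ends are trimmed to single strands. Those strands are first coated by RPA and then by recombinases such as DMC1, which search for the matching sequence on the homologous chromosome. Breaks are made early in meiotic prophase, before the pachytene stage at which these cells were collected.

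Both genotypes are given as 1 list in which the authors had already combined the replicates, so no value below has a replicate error and no difference between genotypes could be tested. Merging the overlapping rows among the 12183 of the Arid1a cKO list gave 6552 regions, with 6179 of them on autosomes. The Arid1a WT list held 228 regions, of which 4 were autosomal. Each row carries a fold, the ratio of H3.3 signal to background over the peak, and the −log10 p and −log10 q of the peak. Rows with different ends can carry the same values, so whether a value describes 1 replicate or all of them is unknown. Sequencing depth is unknown. The lowest fold listed was 4.85 in Arid1a WT and 2.80 in Arid1a cKO, and the lowest −log10 p was 6.12 and 4.21, so the lists reach down to different levels.

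H3.3 rows of the Arid1a cKO list lay at Swsap1, Spo11, Dmc1 and Rpa1, and at none of Prdm9, Zcwpw1, Hells, Rec114 and Mei4. That is 4 of 9 genes, or 44.4%, beside 30.9% of all autosomal protein-coding genes (6436 of 20807). With the gene body left out, all 4 kept a row within 1 kb of a start, beside 29.5% of all genes. In the Arid1a WT list 0 of 9 genes had a row, beside 0.00961% of all genes (2 of 20807), so nearly every autosomal gene lacked a WT row as these genes did. Chromosome 9 was the one chromosome with a member gene that held any WT region. The nearest WT region there was 7820 kb from Rec114, 28875 kb from Swsap1 and 31030 kb from Mei4. A gene without a row may still carry H3.3 at a level that the peak calling did not list.

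**Figure D1:**
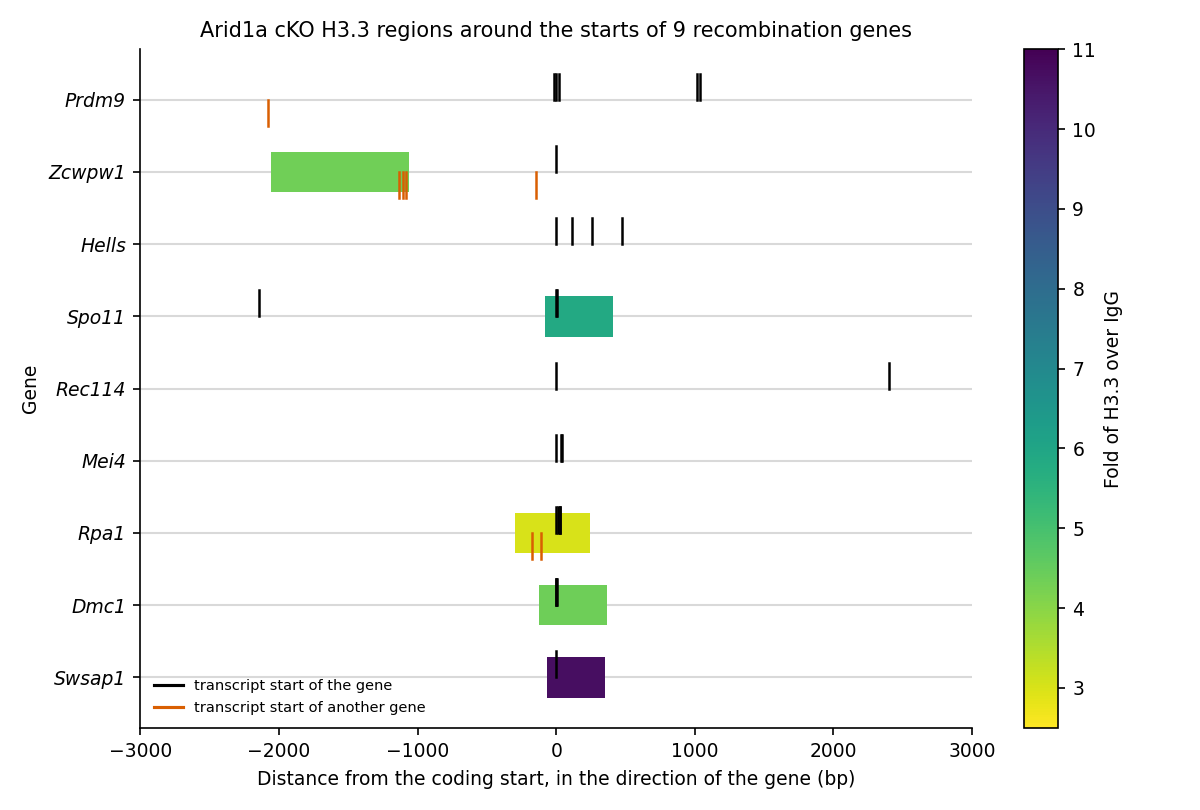
Merged Arid1a cKO H3.3 regions (boxes, coloured by fold over IgG) within 3 kb of the coding start of each of the 9 genes, with distance in bp on the x axis and positive values inside the gene. Black ticks are transcript starts of the gene and orange ticks those of other genes. Boxes cover the coding starts of Spo11, Rpa1, Dmc1 and Swsap1, and the box near Zcwpw1 ends 1060 bp before its start.

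Swsap1, whose product partners with SWS1 in support of recombinase filaments, had the highest fold of the 9 genes, 10.7, with a −log10 p of 22.0 and a −log10 q of 17.6. Its 2 rows, chr9:21955688-21956106 (419 bp) and chr9:21955690-21956041 (352 bp), come from 1 peak call and share its fold and p, so they differ only in their ends. The region was the fourth highest of the 6552 regions of the cKO list, and Swsap1 held rank 4 among the 6436 genes with a row. Swsap1 is also the shortest of the 9 genes at 2.51 kb, shorter than 91.5% of all genes, and has 1 annotated transcript, which starts at 21955755 on the plus strand. Of the 419 bp of the region, 67 lay before that start, 7 in the 5′ UTR, 243 in coding sequence and 102 in an intron, with the centre 142 bp inside the gene. RefSeq, but not GENCODE M21, also places the start of a noncoding RNA on the opposite strand, Gm45914, inside this region, and its share of the peak cannot be told apart from that of Swsap1. The first 300 bases of the region are shown because they span the start of the gene under the strongest peak. They are from chr9:21955688-21955987, plus strand, mm10, with CG dinucleotides in capitals.
Swsap1: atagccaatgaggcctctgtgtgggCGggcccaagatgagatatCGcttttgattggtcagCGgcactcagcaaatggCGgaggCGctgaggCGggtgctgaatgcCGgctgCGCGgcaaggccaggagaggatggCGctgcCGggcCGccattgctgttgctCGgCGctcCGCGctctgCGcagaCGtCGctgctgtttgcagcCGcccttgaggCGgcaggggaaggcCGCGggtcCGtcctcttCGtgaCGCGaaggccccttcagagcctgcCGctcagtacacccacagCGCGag
These bases held 30 CG dinucleotides, and the whole region held 39 at a GC content of 63.7%.

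Spo11, which encodes the topoisomerase-like enzyme that cuts the DNA, had a fold of 5.87, a −log10 p of 12.1 and a −log10 q of 8.30. Its rows were chr2:172979761-172980249 (489 bp) and chr2:172979761-172980243 (483 bp), again from 1 peak call. By fold the region was number 635 in the list, and 9.68% of regions stood higher. Spo11 extends from 172977700 to 172993576 on the plus strand of chromosome 2, and the first of these positions is the start of a noncoding transcript. The region lay further in, over the coding starts at 172979842 and 172979849, and its 489 bp comprised 81 before the coding transcripts, 52 of UTR, 131 of coding sequence and 225 of intron. Its GC content was 66.1%, with 42 CG dinucleotides.

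Dmc1, which encodes the meiosis-specific recombinase of strand invasion, had 2 identical rows at chr15:79604739-79605232 (494 bp), with a fold of 4.36, a −log10 p of 8.33 and a −log10 q of 4.87. The region was number 2277 by fold, with 34.7% of regions higher. Dmc1 lies on the minus strand (79561497 to 79605109), and 123 bp of the region lay before the start, 148 in the 5′ UTR and 223 in the first intron. The intron and upstream stretches are shown because the region is split between them. They are chr15:79604739-79604961 and chr15:79605160-79605232 on mm10, both on the minus strand with CG in capitals.
Dmc1 intron: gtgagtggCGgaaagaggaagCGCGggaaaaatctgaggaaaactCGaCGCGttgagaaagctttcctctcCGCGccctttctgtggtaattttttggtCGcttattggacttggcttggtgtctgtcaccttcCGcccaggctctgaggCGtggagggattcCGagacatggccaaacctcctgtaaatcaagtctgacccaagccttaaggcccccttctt
Dmc1 upstream: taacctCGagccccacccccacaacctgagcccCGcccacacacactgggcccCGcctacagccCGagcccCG
The intron stretch held 12 CG dinucleotides in 223 bases at 53.4% GC, and the upstream stretch 5 in 73 bases at 72.6% GC.

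Rpa1, which encodes the large subunit of the single-strand binding complex RPA, had the lowest fold of the 4 genes, 3.00, with a −log10 p of 5.05 and a −log10 q of 2.01. Its 2 identical rows at chr11:75348081-75348619 (539 bp) formed region number 5550, with 84.7% of regions higher. The region also covered the start of Smyd4, a gene on the opposite strand that begins 109 bp from the Rpa1 start, so the peak cannot be given to Rpa1 alone. Of its bases, 295 lay before the Rpa1 start, 66 in UTR, 33 in coding sequence and 145 in an intron. The stretch inside Rpa1, chr11:75348081-75348258 on the minus strand of mm10, is shown because no transcript of Smyd4 is involved there. It holds the first coding bases and the intron after them, with CG in capitals.
Rpa1: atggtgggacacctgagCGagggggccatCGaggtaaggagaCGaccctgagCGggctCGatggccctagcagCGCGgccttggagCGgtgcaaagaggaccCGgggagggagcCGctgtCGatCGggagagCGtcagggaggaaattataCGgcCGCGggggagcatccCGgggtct
It held 17 CG dinucleotides in 178 bases at 67.4% GC.

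Set against the limits of the lists, the folds of Swsap1 (10.7) and Spo11 (5.87) were above the lowest fold listed in Arid1a WT, 4.85, and those of Dmc1 (4.36) and Rpa1 (3.00) were below it. The −log10 p of Rpa1, 5.05, was also below the lowest in the WT list, 6.12, but that of Dmc1, 8.33, was above it. For Dmc1 and Rpa1, a peak of the same fold in Arid1a WT would thus have had a lower fold than any listed there. By p this was so for Rpa1 and not for Dmc1. Folds of the 2 lists come from separate libraries of unknown depth and were not compared further. The 4 genes had a median fold of 5.12, beside 4.10 over the 6436 genes with a row.

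**Figure D2:**
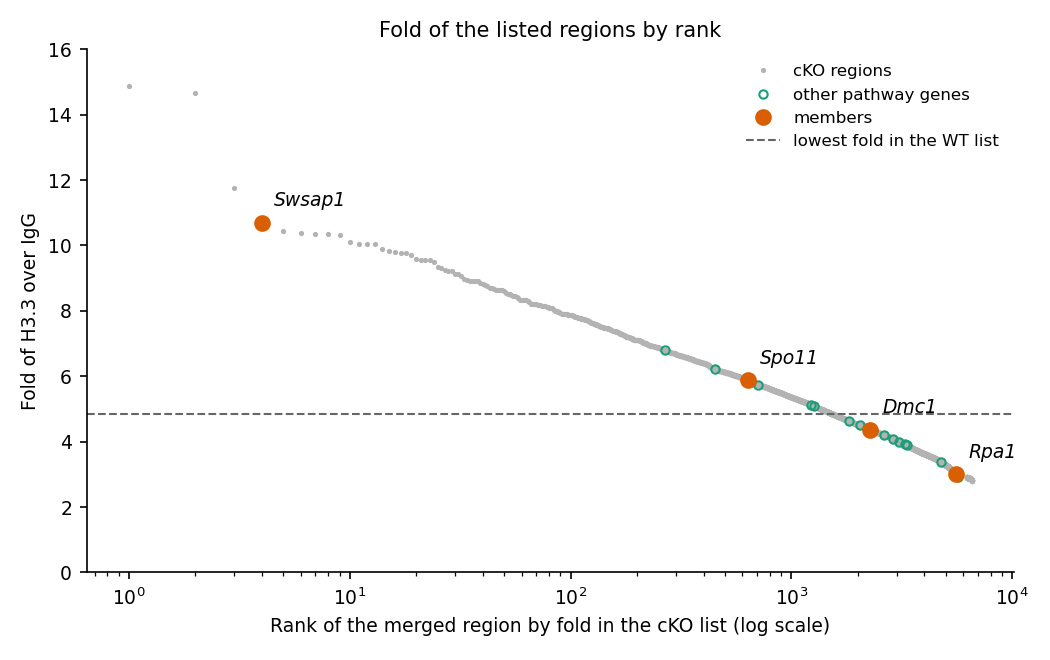
Fold of H3.3 over IgG (y axis) against the rank of each merged region in the Arid1a cKO list (x axis, log scale), with all regions in grey, the 4 genes with a row as filled orange points and other recombination genes of 5 roles as open green circles. Swsap1 stands at rank 4 and Rpa1 at rank 5550, and the dashed line at 4.85 is the lowest fold of the WT list, above Dmc1 and Rpa1.

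All 3 of the 9 genes that select or read hotspots lacked a cKO row, though the 3 other hotspot genes given below all had one. Over all autosomal protein-coding genes, 14371 of 20807 lacked a row. Of the 3 hotspot genes without one, Zcwpw1, a reader of the histone marks that PRDM9 writes, came closest. A cKO region at chr5:137785743-137786738 (996 bp, fold 4.33, −log10 p 8.45) ended 1060 bp before the GENCODE start of Zcwpw1 at 137787798, or 60 bp outside the window. That region covers the start of the neighbour Mepce. RefSeq gives Zcwpw1 an earlier start at 137787331, 593 bp from the region, so with curated RefSeq transcripts Zcwpw1 is counted and the total becomes 5 of 9. For Prdm9, the methyltransferase that sets hotspot positions, the nearest region lay 15.8 kb away at Pdcd2, with a fold of 3.38. For Hells, a chromatin remodeler that opens PRDM9 sites, it lay 93.4 kb away at Tbc1d12, with a fold of 4.21.

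Of the break formation genes, Rec114 and Mei4, whose products act together in the complex that activates SPO11, also lacked a row. The nearest region was 292 kb from Rec114 and 230 kb from Mei4, beside a median of 92.7 kb over the 14371 genes without a row. Mei4 spans 342 kb, longer than all but 2.12% of genes, and had no row in its body. For Prdm9, 15.2% of the genes without a row had a nearer region. For Hells this share was 50.2%, for Mei4 69.5% and for Rec114 73.9%. Stretches before or around the starts of genes without a row are shown for comparison with the peaks above. They come from RefSeq promoter windows on GRCm38.p6, on the strand of the gene and with CG in capitals, and are chr17:15564375-15564494 (minus), chr5:137787656-137787734 (plus), chr9:58741510-58741629 (minus) and chr9:81863550-81863669 (plus).
Prdm9: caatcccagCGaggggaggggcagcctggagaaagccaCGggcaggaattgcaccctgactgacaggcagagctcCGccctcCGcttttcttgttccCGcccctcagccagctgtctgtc
Zcwpw1: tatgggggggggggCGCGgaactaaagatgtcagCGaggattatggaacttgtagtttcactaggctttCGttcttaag
Rec114: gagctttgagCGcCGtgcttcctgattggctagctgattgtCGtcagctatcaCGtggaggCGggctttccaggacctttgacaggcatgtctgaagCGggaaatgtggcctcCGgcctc
Mei4: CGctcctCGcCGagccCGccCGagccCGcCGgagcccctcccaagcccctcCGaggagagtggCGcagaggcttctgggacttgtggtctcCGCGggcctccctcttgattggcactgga
They held 5, 4, 7 and 11 CG dinucleotides in 120, 79, 120 and 120 bases, in that order. Their GC content was 64.2%, 49.4%, 58.3% and 71.7%. Most stretches shown at peaks are longer, so the counts cannot be compared without the lengths. A second Zcwpw1 stretch, chr5:137787081-137787156 before the earlier RefSeq start at 137787331, is not shown. It held 1 CG dinucleotide in 76 bases at 22.4% GC. No stretch of Hells is shown.

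CpG content at the start was related to the presence of a row over all genes. Within 500 bp of the coding start, the ratio of observed to expected CpG had a median of 0.785 in genes with a row at a start and 0.369 in genes without. With all genes divided by this ratio into 4 classes of equal size, 2.69%, 10.5%, 42.9% and 62.0% of genes had a row, from the lowest class to the highest. Of the 9 recombination genes, 8 were in the upper 2 classes, and 4 of these 8 had a row, beside 52.5% of all genes there. The genes with a row had ratios of 0.907 (Swsap1), 0.837 (Rpa1), 0.640 (Spo11) and 0.637 (Dmc1). Those without had 0.936 (Hells), 0.865 (Zcwpw1), 0.656 (Prdm9), 0.578 (Mei4) and 0.158 (Rec114), so the ranges overlapped and the highest ratio belonged to a gene without a row. For Prdm9 and Rec114 the value depends on the start used. The Rec114 ratio of 0.158 was not taken at the RefSeq start whose stretch is shown above. At the start of the consensus coding (CCDS) transcript, a choice made after the first values were seen, the ratio was 0.327 for Prdm9 and 0.444 for Rec114, Mei4 fell just below the median, and 6 genes were in the upper 2 classes, 4 of them with a row, beside 52.8% of all genes there.

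**Figure D3:**
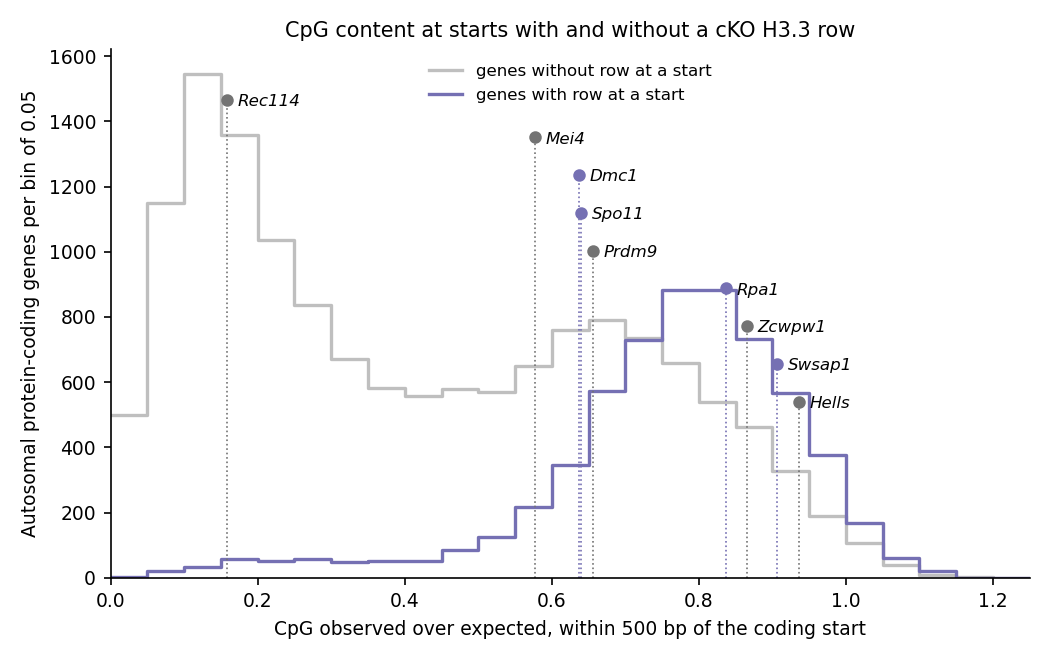
Number of autosomal protein-coding genes (y axis) per bin of the ratio of observed to expected CpG within 500 bp of the coding start (x axis), for genes with a cKO row at a start (purple) and without one (grey). Dots mark the ratio of the 9 genes in the colour of their class, with heights chosen only to separate the names. Hells, without a row, lies at 0.936 and Dmc1, with a row, at 0.637.

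The regions at these genes were lower in GC than the median autosomal cKO region, 69.1%. Rpa1 had 68.5%, Spo11 66.1%, Swsap1 63.7% and Dmc1 62.1%, and 95.2% of regions were richer in GC than that of Dmc1. Rpa1 was close to the median, with 55.6% of regions richer. Over the regions themselves, the CpG ratio of Swsap1 (0.929) and Rpa1 (0.923) was above the median region, 0.858. That of Dmc1 (0.798) and Spo11 (0.790) was below it. Short motifs were searched on both strands of the RefSeq promoter windows, from 250 bases before to 50 after the start, which 8 of the 9 genes have. The motif of STRA8, the factor that starts the meiotic programme, was written as CNCCTCAG and found at Prdm9 and Swsap1, beside 8.52% of 21262 windows. The E2F motif GCGGGAA was found at Prdm9, Hells and Rec114 (5.95% of windows), and the E-box CACGTG at Rec114 and Rpa1 (7.84%). CCAAT was found at Prdm9, Rec114, Mei4, Rpa1 and Swsap1 (38.2%), and neither GCGCATGC of NRF1 (3.51%) nor AACNGTT of MYB (4.05%) was found at any. In the central 300 bases of the cKO regions, the STRA8 motif was present at Swsap1 (13.2% of 6179 regions) and the E2F motif at Dmc1 (679 of 6179 regions). The E-box was present there at Rpa1 (7.43%), and CCAAT at 3 of the 4 (Rpa1, Dmc1 and Swsap1), beside 20.4% of regions. Outside the central 300 bases, the Dmc1 intron stretch shown above also holds the STRA8 motif, on the opposite strand (ctgaggCG). No share over whole regions is given for it.

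The 38 other genes of the same steps were listed with earlier results of these data known. Among them, 25 had a row in the cKO list (65.8%), beside 30.9% of all genes, and 0 had one in the WT list, beside 0.00961%. The shares of all genes cover protein-coding genes only, and 24 of the 37 protein-coding genes of the list had a cKO row (64.9%). Of the 37 that are protein-coding in GENCODE M21, 31 were in the upper 2 CpG classes. In these classes 23 of the 31 had a row at a start (74.2%), beside 52.5% of all genes there. The part of CpG content in the count was not tested. All 5 end processing genes had a row, with folds from 3.37 to 6.79, as did 3 of 3 hotspot genes and 3 of 4 genes for single-stranded DNA binding. A row was found for 2 of 4 break formation genes and for 2 of 5 genes of recombinase loading. High folds belonged to Rbbp8 (6.79), which encodes the end resection factor CtIP, Zcwpw2 (6.23), Ewsr1 (5.84) and Meiob (5.74), a partner of RPA in meiosis. The region of Rbbp8 lay at a transcript start inside the gene, with its centre 24196 bp from the furthest coding start. Zcwpw2 is annotated as a pseudogene in GENCODE M21 and its region also lies at the start of Azi2. The region of Ewsr1 likewise covers the start of Rhbdd3 on the opposite strand, so neither fold can be given to the named gene alone. Top6bl, the partner subunit of SPO11, had 2 regions, with folds of 4.41 and 4.21, the weaker one at the start of Rce1. Hsf2bp, which acts in recombinase loading, had 2 regions, with folds of 3.92 and 2.91. The highest fold in this list, 6.79, was below that of Swsap1, 10.7, and no gene of the list had a highest fold as low as that of Rpa1, 3.00.

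**Figure D4:**
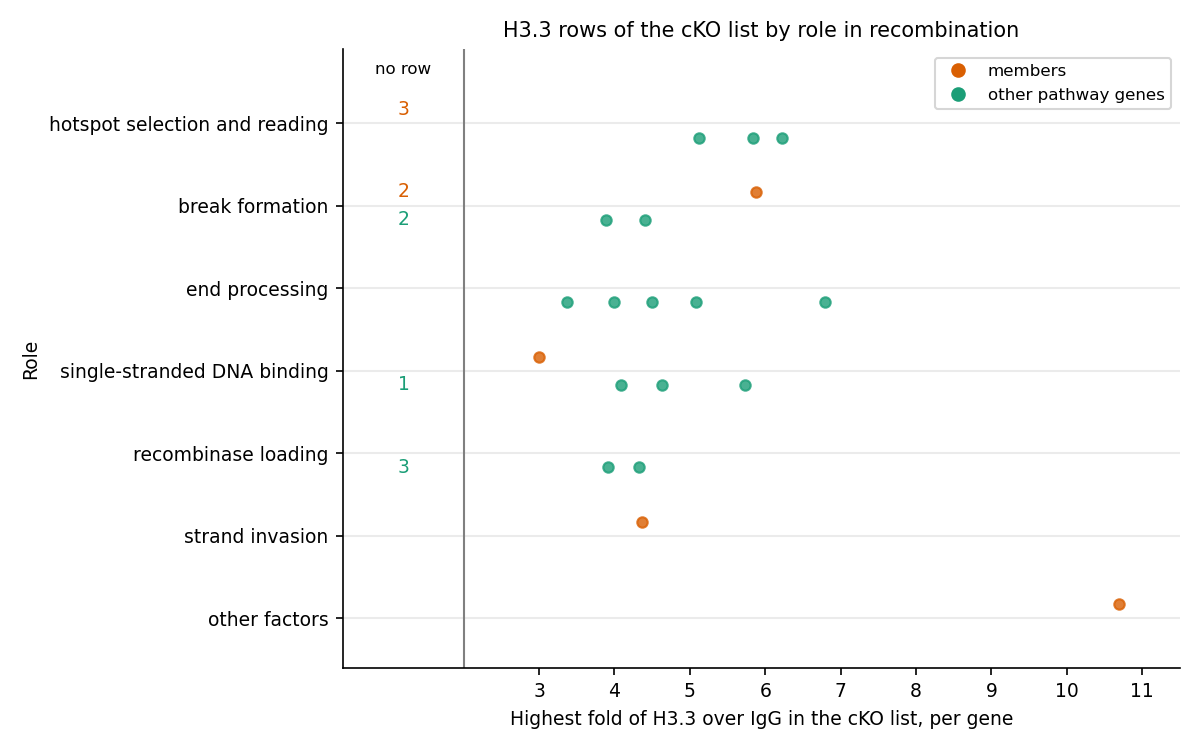
Highest fold of H3.3 over IgG per gene in the Arid1a cKO list (x axis) by role in recombination (y axis), for the 9 genes described (orange) and, for the first 5 roles, other genes of the same steps (green). Numbers on the left count genes without a row, including 3 orange genes for hotspot selection and 2 for break formation.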

How the data were processed

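The authors trimmed the CUT&RUN reads (Trim Galore), aligned them to mm10 (Bowtie2), removed duplicates (Picard), called broad peaks with MACS2 against an IgG library of another study, made from younger animals, and intersected the replicates. Of the columns the authors deposited, the fold is the ratio of H3.3 to background, the −log10 p-value and −log10 q-value are those of MACS2, and the score was not used. The IgG control and the intersection both affect which peaks are listed, and the intersection hides replicate spread. Per-sample columns without a match to a sample numbered 0.

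Groups were taken from the sample labels. Rows overlapping a gene, or within 1 kb of a transcript start (GENCODE M21, minimum overlap 1 bp), were assigned to it, and overlapping rows were merged into regions and ranked by fold. Coordinates are 1-based on mm10 (GRCm38). No test was made. The genes, the list of 38 other genes and the motifs were chosen with earlier results of these data known. All 9 genes are named with every row. Of the other 38, the rule named the 5 with the highest fold and those with more than 1 region, which are given by fold without coordinates, and some results are not reported here. Promoter sequences are from RefSeq (GRCm38.p6), and stretches with over 30 bases of annotated UTR are not shown. The assignment was tested on simulated data. Alternatives covered −log10 q thresholds, support by a second row, transcripts, overlap and window, and the starts used for CpG. Python 3.11.15 was used with numpy 2.4.6, pandas 2.3.3 and matplotlib 3.10.9.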

Additional observations from a re-analysis of the deposited data

How the results depend on the processing

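At a −log10 q of at least 5, the number of the 9 genes with a cKO row fell from 4 to 2 (Spo11 and Swsap1), both by the full rule and at starts, that of the 38 other genes fell from 25 to 11, and the share of all genes fell to 9.88%. At a −log10 q of at least 3, 3 genes were left, without Rpa1, and 22 of the other genes, beside 21.6% of all genes. A window of 5 kb (32.6% of all genes), curated RefSeq transcripts (30.8%) or all RefSeq transcripts (30.9%) each gave 5, with Zcwpw1 added. The RefSeq and CCDS alternatives were chosen after seeing the data. The WT count was 0 under every alternative run. Ranked by rows, 86.6% of rows stood higher than Rpa1 and 36.9% higher than Dmc1, in place of 84.7% and 34.7% of regions. No paired analysis was possible because the replicates are combined into 1 list per genotype, which also prevents leaving out a replicate. Depth is unknown, so no limit can be set on H3.3 at genes without a row.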
